A study of Mus musculus with 9 samples.

Results

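Acyl-CoA thioesterases are enzymes that split a fatty acyl-CoA into the free fatty acid and coenzyme A. The 7 genes described here, Acot1, Acot2, Acot3, Acot4, Acot8, Acot12 and Acot13, were taken as the rows of the deposited count table whose Ensembl identifier carries one of these symbols in GENCODE release M21. They make up 7 of the 54393 genes in the table, and all 7 were among the 14873 genes with enough counts to be tested. The members were chosen by the measured difference in their levels between antibiotics and control livers in these libraries, so the family's fold changes are a description of these livers, and the p-values beside them, adjusted over all 14873 genes, are not independent evidence.

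RNA was sequenced from livers of C56Bl/6j mice fed the diet AIN-76a. In 4 libraries (replicates 1, 2, 3 and 5) the mice had been given antibiotics that stay in the gut and deplete its bacteria, and in 5 control libraries (replicates 1 to 5) they had not. Strain, diet and tissue were the same in both groups, and the sources used here give no age, sex, agent names or dose. The comparison asks which liver transcripts differ when the gut microbiota is depleted.

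By cutting acyl-CoA, thioesterases set the balance between activated and free fatty acids in each compartment of the hepatocyte, against the acyl-CoA synthetases that make the thioester. Acot1 to Acot6 arose by duplication and lie side by side in the mouse genome. Their products have one fold but work in different places: Acot1 in the cytosol, Acot2 in mitochondria, and Acot3, Acot4, Acot5 and Acot6 in peroxisomes. Several of them are known in rodent liver as targets of PPARalpha, the nuclear receptor that senses fatty acids and is activated in fasting. Acot8 is a peroxisomal thioesterase of another fold with a broad range of substrates, Acot12 a cytosolic enzyme that hydrolyses acetyl-CoA, and Acot13 a small enzyme associated with mitochondria that prefers long-chain acyl-CoA.

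The ends of the coding sequences of 6 members are printed because import signals of peroxisomal enzymes are commonly encoded there. Each line gives the last 30 coding bases and the stop codon, 5′ to 3′, from the longest coding transcript in GENCODE M21, with the 3 codons before the stop in capitals.
Acot1: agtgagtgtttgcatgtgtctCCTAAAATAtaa
Acot2: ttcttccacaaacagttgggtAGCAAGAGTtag
Acot3: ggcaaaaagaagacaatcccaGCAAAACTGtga
Acot4: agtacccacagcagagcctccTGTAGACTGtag
Acot8: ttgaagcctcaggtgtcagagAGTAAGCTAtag
Acot12: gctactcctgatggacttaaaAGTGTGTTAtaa
Acot3, Acot4 and Acot8 each end in a leucine codon (CTG or CTA), as type 1 peroxisomal signals commonly do. Cytosolic Acot12 also ends in one (TTA), so this codon does not separate the compartments.

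Acot2, Acot1, Acot4, Acot3, Acot5 and Acot6 follow one another in this order on the plus strand of chromosome 12 (GRCm38), within 123.5 kb. Acot2 (ENSMUSG00000021226.7) spans 83987861 to 83993873, Acot1 (ENSMUSG00000072949.6) spans 84009490 to 84018371, Acot4 (ENSMUSG00000052392.5) spans 84038379 to 84048601, and Acot3 (ENSMUSG00000021228.15) spans 84052144 to 84060402. The other members lie apart. Acot8 (ENSMUSG00000017307.16) is on chromosome 2 (164792765 to 164804882, minus strand). Acot12 (ENSMUSG00000021620.4, 91741512 to 91786148, plus strand) and Acot13 (ENSMUSG00000006717.7, 24817948 to 24831540, minus strand) are both on chromosome 13.

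**Figure D1:**
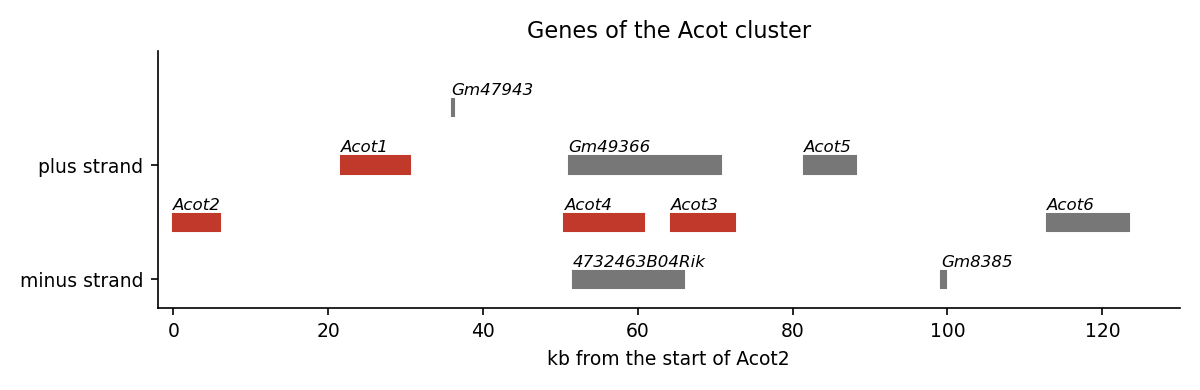
Genes annotated in GENCODE M21 between the outer ends of Acot2 and Acot6, by distance in kb from the start of Acot2. Boxes are whole gene spans, red for described members and grey for other genes, and the 3 upper levels only keep plus-strand boxes apart. Gm49366 spans from within Acot4 into Acot3, and all 6 Acot genes lie on the plus strand within 123.5 kb.

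Because the cluster arose by duplication, sequence decides how well its counts can be told apart. The coding sequences of Acot1 and Acot2 were identical at 95.5% of aligned bases, those of Acot3 and Acot4 at 75.9%, and those of Acot3 and Acot5 at 85.8%. Of all 31-base windows in the transcripts of Acot1, 22.7% also occurred in a transcript of another gene, most often Acot2. The share was 37.3% for Acot2, 23.1% for Acot3 and 8.23% for Acot4, and none of the windows of Acot8, Acot12 and Acot13 occurred elsewhere on the same strand. Counts that Salmon assigned among the paralogs therefore carry some uncertainty, most of all between Acot1 and Acot2. All 399 windows of Gm49366, which shares 396 exonic bases with Acot3 and 33 with Acot4, were found in Acot3 transcripts. The antisense gene 4732463B04Rik covers 312 exonic bases of Acot3 and 615 of Acot4, and reached at most 28 counts in any library. Acot8 shares 246 exonic bases with Snx21 on the opposite strand, and Acot12 shares 149 with 4833422C13Rik. The library kit kept strand, but whether the counting used it is not given in the sources used here.

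Acot3 and Acot4 levels varied together between libraries, as did those of Acot1 and Acot2, so the sequences at their starts are shown. Each covers 250 bases before to 50 after the RefSeq start (GRCm38.p6), 5′ to 3′, and capitals mark the hexamer AGGTCA on either strand, the half-site bound by many nuclear receptors, here read as TGACCT.
Acot3, chr12:84051894-84052193, plus strand: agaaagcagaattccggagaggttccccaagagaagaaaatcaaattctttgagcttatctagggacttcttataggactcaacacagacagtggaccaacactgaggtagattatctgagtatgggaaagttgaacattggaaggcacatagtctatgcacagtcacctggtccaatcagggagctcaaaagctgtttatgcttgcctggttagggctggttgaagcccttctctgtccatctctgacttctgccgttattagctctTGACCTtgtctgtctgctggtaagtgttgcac
Acot4, chr12:84038129-84038428, plus strand: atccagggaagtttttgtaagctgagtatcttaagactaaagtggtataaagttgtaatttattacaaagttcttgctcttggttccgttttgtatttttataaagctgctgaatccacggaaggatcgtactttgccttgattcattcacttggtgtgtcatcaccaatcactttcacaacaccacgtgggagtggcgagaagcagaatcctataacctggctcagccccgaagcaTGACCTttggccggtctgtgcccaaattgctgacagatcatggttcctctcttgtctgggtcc
Acot1, chr12:84009252-84009551, plus strand: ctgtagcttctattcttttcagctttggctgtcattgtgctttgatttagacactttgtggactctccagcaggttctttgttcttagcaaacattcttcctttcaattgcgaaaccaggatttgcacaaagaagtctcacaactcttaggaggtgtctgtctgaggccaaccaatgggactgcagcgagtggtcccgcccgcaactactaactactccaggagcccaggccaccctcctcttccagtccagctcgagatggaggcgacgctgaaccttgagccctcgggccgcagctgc
Acot2, chr12:83987611-83987910, plus strand: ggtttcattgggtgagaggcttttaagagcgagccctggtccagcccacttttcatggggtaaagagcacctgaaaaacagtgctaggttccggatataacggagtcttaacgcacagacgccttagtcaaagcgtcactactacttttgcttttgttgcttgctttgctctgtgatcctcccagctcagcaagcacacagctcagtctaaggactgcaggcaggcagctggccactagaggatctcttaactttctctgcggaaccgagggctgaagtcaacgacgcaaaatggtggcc
This half-site occurred in Acot3, Acot4 and Acot12 among the 6 members with a RefSeq promoter in the table used, and in 16.3% of 32851 promoters of the same length. In Acot4 it began 13 bases before the start, in Acot3 at base 19 after it and in Acot12 at 110 bases before it. Paired half-sites with spacers of 1 base (AGGTCANAGGTCA), 2 bases (AGGTCANNAGGTCA) and 5 bases (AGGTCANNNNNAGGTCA) had no match in the members, against 0.0396%, 0.00913% and 0.00913% of all promoters, and contain the single half-site. The variant AGTTCA (13.99% of promoters) and the clock element TTATGTAA (0.938%) had none either. The E-box CACGTG (7.15%) and TATAAA (13.6%) each had a match in Acot4 alone. These matches describe letters and not bound sites.

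The 4 antibiotics libraries held 15422891 to 59179622 estimated counts and the 5 control libraries 28156248 to 49628737. Antibiotics replicate 5 was the deepest of all, and antibiotics replicates 1, 2 and 3 were shallower than every control. Alb, 1 of 8 listed hepatocyte markers, lay between 55640 and 71590 CPM in all libraries. Kidney, pancreas and muscle markers other than Cela1 were at or near 0 CPM. With antibiotics 398 genes differed (242 higher and 156 lower) by edgeR's quasi-likelihood test at an adjusted p under 0.05. That is 2.68% of the tested genes, 1.63% called higher and 1.05% lower.

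Acot3 rose with antibiotics, and did so mainly in some of the libraries. It measured 2.75, 4.18, 18.7 and 38.6 CPM (counts scaled by library size and TMM factor to a common total) in antibiotics replicates 1, 2, 3 and 5, against 2.30, 1.54, 2.67, 2.86 and 2.39 CPM in control replicates 1 to 5. Antibiotics replicates 3 and 5 stood far above every control, replicate 2 stood slightly above them, and replicate 1 lay within the control range. The means were 16.1 ± 16.7 CPM with antibiotics (SD, n = 4) and 2.35 ± 0.505 CPM in controls (SD, n = 5), a log2 fold change of 2.83 ± 0.62 (SE, edgeR adjusted p = 0.0393). In bulk liver, more RNA per cell and more cells of a type that holds the transcript cannot be told apart. Without antibiotics replicate 5 the log2 fold change was 1.87 (adjusted p = 0.120), and without replicate 3 it was 2.76 (adjusted p = 0.0956). Of the 9 fits that left out 1 library, Acot3 passed only in those without antibiotics replicate 1 (adjusted p = 0.0324) or replicate 2 (0.0311), while each control left out in turn gave 0.0540 to 0.0802.

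Depth moved with this pattern, since the library with the highest Acot3 was the deepest. With all libraries thinned to the 15422891 counts of the smallest, Acot3 still had 42, 65, 280 and 606 counts in antibiotics replicates 1, 2, 3 and 5, against 38, 27, 42, 55 and 39 in control replicates 1 to 5. The fold change in thinned data was 2.59 on the log2 scale (adjusted p = 0.0521). Gm49366, whose windows all occur in Acot3, had 0, 12, 37 and 335 unthinned counts in antibiotics replicates 1, 2, 3 and 5, against 8, 0, 11, 0 and 0 in control replicates 1 to 5. It was thus also highest in antibiotics replicates 3 and 5, and adding its counts to Acot3 gave a log2 fold change of 2.93 (adjusted p = 0.0385).

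Acot4, whose mouse enzyme cleaves short dicarboxylyl-CoA such as succinyl-CoA in peroxisomes, showed the same order among the antibiotics libraries on a smaller scale. It measured 37.0, 41.8, 69.6 and 98.2 CPM in antibiotics replicates 1, 2, 3 and 5, against 30.96, 25.5, 42.3, 33.9 and 28.8 CPM in control replicates 1 to 5. Antibiotics replicates 3 and 5 lay above all controls, while replicates 1 and 2 lay below control replicate 3. The log2 fold change was 0.94 ± 0.26 (SE, edgeR adjusted p = 0.0730), with means of 61.6 ± 28.3 CPM in antibiotics libraries (SD, n = 4) and 32.3 ± 6.35 CPM in control libraries (SD, n = 5).

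Acot1, the cytosolic long-chain enzyme, measured 12.6, 14.6, 11.2 and 20.9 CPM in antibiotics replicates 1, 2, 3 and 5, against 6.62, 6.88, 9.94, 9.87 and 10.7 CPM in control replicates 1 to 5. The groups did not overlap, but antibiotics replicate 3, high in Acot3, was here the lowest of its group and close to control replicate 5. The log2 fold change was 0.78 ± 0.20 (SE, edgeR adjusted p = 0.0633). Acot2, its mitochondrial near-copy, was lower throughout, with 2.09, 2.79, 1.99 and 4.43 CPM in antibiotics replicates 1, 2, 3 and 5 and 1.19, 1.43, 1.38, 1.63 and 1.84 CPM in control replicates 1 to 5. Its groups did not overlap either, and antibiotics replicate 3 was again the lowest of the group. The log2 fold change was 0.97 ± 0.25 (SE, edgeR adjusted p = 0.0619).

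**Figure D2:**
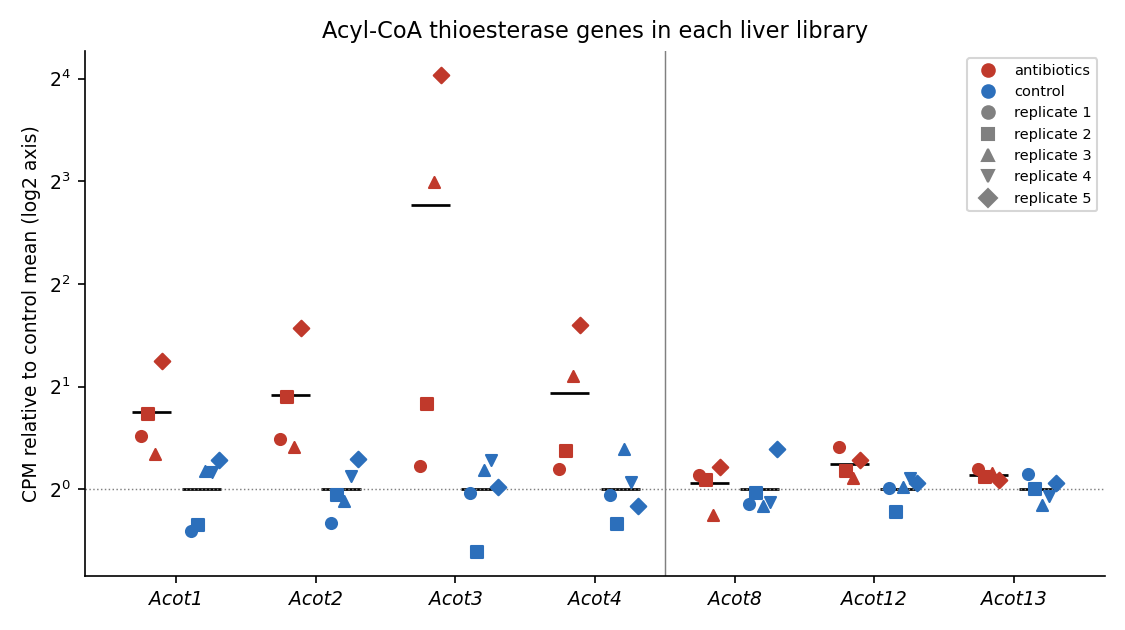
CPM of each member in each library divided by the gene's control mean, on a log2 axis, with antibiotics libraries in red and control libraries in blue. Symbols give replicate numbers and black lines group means. For Acot3 antibiotics replicates 3 and 5 sit at 7.95 and 16.5 times the control mean, while every antibiotics library of Acot8, Acot12 and Acot13 stays between 0.842 and 1.33 times.

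The members outside the cluster differed less between the groups. Acot12, the acetyl-CoA hydrolase, measured 138, 117, 112.2 and 127 CPM in antibiotics replicates 1, 2, 3 and 5, against 105, 89.5, 106, 112.2 and 108 CPM in control replicates 1 to 5. The lowest antibiotics library, replicate 3, was barely above the highest control, replicate 4 (log2 fold change 0.25 ± 0.08, SE, edgeR adjusted p = 0.148). Acot13 measured 35.7, 33.7, 34.6 and 33.04 CPM in antibiotics replicates 1, 2, 3 and 5, against 34.5, 31.1, 27.8, 29.6 and 32.4 CPM in control replicates 1 to 5, which overlap (log2 fold change 0.14 ± 0.07, SE, edgeR adjusted p = 0.347). Acot8 measured 9.80, 9.48, 7.52 and 10.4 CPM in antibiotics replicates 1, 2, 3 and 5, against 8.07, 8.71, 7.97, 8.17 and 11.7 CPM in control replicates 1 to 5 (log2 fold change 0.07 ± 0.14, SE, edgeR adjusted p = 0.837). Antibiotics replicate 3, among the highest for Acot3 and Acot4, was the lowest of all 9 libraries for Acot8.

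With edgeR 1 of the 4 clustered paralogs passed, Acot3, where 1.63% of all tested genes were called higher. DESeq2 called Acot1, Acot2 and Acot3, and voom called Acot2 and not Acot3. Over all 14873 tested genes DESeq2 called 975 and voom 413, in either direction. Of the 3 other members 0 passed with edgeR, DESeq2 or voom. At an unadjusted p under 0.05 the counts were 4 of 4 and 1 of 3, beside 18.5% of all tested genes in either direction. In 2 of the 4 paralogs (Acot1 and Acot2) and 1 of the 3 others (Acot12) the antibiotics libraries all lay above the controls, beside 4.59% of all tested genes (8.88% without overlap in either direction, 4.29% below). The median log2 fold change was 0.95 over the clustered paralogs, 0.14 over the other members and -0.01 over all tested genes. A score per library, log2 CPM (prior count 2) averaged over genes after subtraction of each gene's control mean, was 0.37, 0.72, 1.23 and 2.12 for the cluster in antibiotics replicates 1, 2, 3 and 5. In control replicates 1 to 5 it was -0.18, -0.31, 0.18, 0.18 and 0.13. The same score for Acot8, Acot12 and Acot13 was 0.26, 0.13, 0.01 and 0.20 in those antibiotics replicates and -0.09 to 0.18 in controls. The cluster score exceeded the score of the others by 0.96 ± 0.78 in antibiotics libraries (SD, n = 4) and by 0 ± 0.23 in controls (SD, n = 5), where the control mean is 0 by construction. The excess ran from 0.12 in antibiotics replicate 1, inside the control range of -0.24 to 0.27, to 1.92 in replicate 5. With Acot1 to Acot6 and Gm49366 summed to a single feature, so that assignment among them no longer matters, the group difference of this excess was 0.83.

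Summed over Acot1 to Acot4, the cluster measured 54.4, 63.4, 101 and 162 CPM in antibiotics replicates 1, 2, 3 and 5, against 41.1, 35.4, 56.2, 48.3 and 43.7 CPM in control replicates 1 to 5. Acot4 gave most of it in every library, 60.5% to 68.6% with antibiotics and 65.9% to 75.4% in controls. The part of Acot3 was 5.04%, 6.60%, 18.4% and 23.8% in antibiotics replicates 1, 2, 3 and 5, against 4.35% to 5.92% in controls. Acot3 had 0.0742, 0.100, 0.269 and 0.394 counts for each count of Acot4 in those antibiotics replicates and 0.0603 to 0.0843 in controls, so antibiotics replicate 1 lay within the control range and the other 3 above it. Acot2 had 0.166 to 0.212 counts for each count of Acot1 in antibiotics libraries and 0.139 to 0.209 in controls, which overlap almost wholly.

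**Figure D3:**
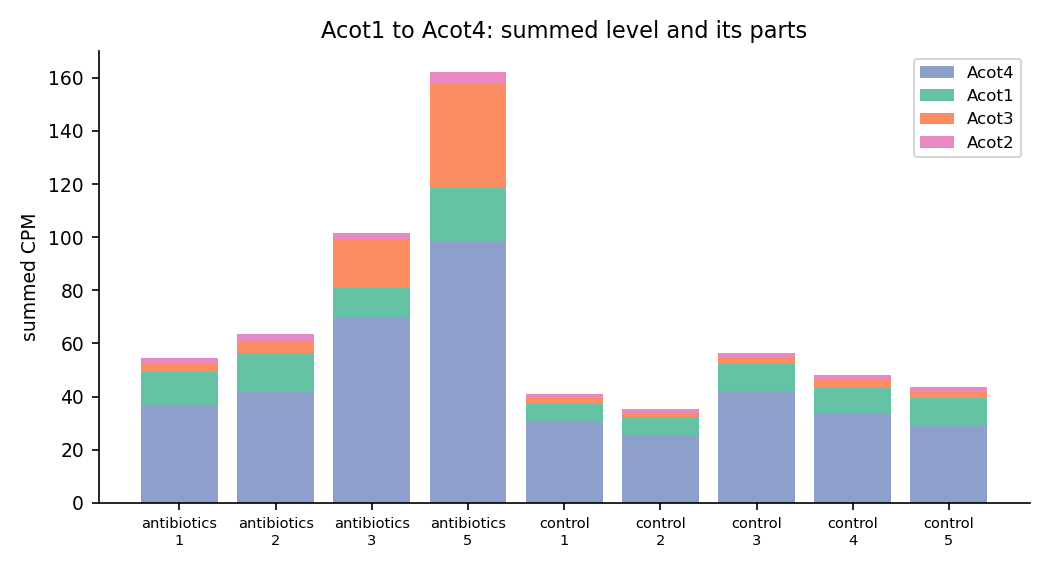
Summed CPM of Acot1 to Acot4 in each library, antibiotics libraries on the left, stacked by gene. The sum reaches 162 CPM in antibiotics replicate 5 against at most 56.2 CPM in controls, and the Acot3 layer is 23.8% of it there against at most 5.92% in controls.

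Levels of different genes were compared per kb of annotated exon, which depends on the transcript lengths assumed. In antibiotics livers the order was Acot13 (46.1 ± 1.53 CPM per kb, SD, n = 4), Acot12 (37.6 ± 3.49), Acot4 (9.23 ± 4.24), Acot3 (4.67 ± 4.85), Acot8 (4.65 ± 0.623), Acot1 (3.78 ± 1.10) and Acot2 (1.29 ± 0.513). There the library ranges of Acot4 and Acot3, Acot3 and Acot8, and Acot8 and Acot1 overlapped. In control livers the order was Acot13 (41.8 ± 3.43 CPM per kb, SD, n = 5), Acot12 (31.6 ± 2.63), Acot4 (4.84 ± 0.952), Acot8 (4.47 ± 0.792), Acot1 (2.24 ± 0.484), Acot3 (0.683 ± 0.147) and Acot2 (0.680 ± 0.113). There only Acot4 and Acot8, and Acot3 and Acot2, overlapped among neighbours in the order. The small mitochondrial Acot13 and the acetyl-CoA hydrolase Acot12 thus led in both groups, and Acot3 was number 4 in the order with antibiotics and number 6 in controls.

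Spread within the groups set the paralogs apart from one another. The SD of log2 CPM among the 4 antibiotics libraries was 1.78 for Acot3, 0.65 for Acot4, 0.52 for Acot2 and 0.39 for Acot1, against a median of 0.14 over 12459 genes that averaged 1 CPM or more. Only 0.482% of those genes had a larger SD than Acot3, and 2.02% had a larger one than Acot4. Among the 5 controls the SD was 0.34 for Acot3, 0.27 for Acot4, 0.23 for Acot2 and 0.32 for Acot1, against a median of 0.18, and 16.97% of genes exceeded Acot3. Acot13 had the smallest spread of the members, 0.05 with antibiotics and 0.12 in controls.

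Likeness was measured as Pearson's r of log2 CPM over the 9 libraries after each group was centred on its own mean, so that the difference between groups did not enter, and is given without a p as a description of these libraries. Because antibiotics replicate 5 was high for all 4 paralogs, it weighs on each value. Acot3 and Acot4 had r = 0.95 (Spearman's rho = 0.93), and each ranked 4 in likeness to the other among 12458 genes. Acot1 and Acot2 had r = 0.88 (rho = 0.80), where Acot2 ranked 25 in likeness to Acot1 and Acot1 ranked 15 in likeness to Acot2. Between the pairs r was 0.453 to 0.515 (rho = 0.22 to 0.38). Outside the cluster, Acot1 and Acot2 had higher values with Acot8, r = 0.57 and 0.64 (rho = 0.58 and 0.67). Acot3 and Acot4 had r = -0.10 and -0.19 with Acot8. With Acot12 the 4 paralogs had r from -0.10 to 0.46, and with Acot13 from -0.55 to -0.28. The genes most like Acot3 were Mink1, a kinase (r = 0.99), Arhgef11 (0.96), and Rarb, the retinoic acid receptor beta (0.95). Those most like Acot4 were Mcoln1, a lysosomal cation channel (0.97), Trim24, a transcriptional cofactor of nuclear receptors (0.96), and Pik3r4 (0.95). These genes did not share a direction between groups. Their log2 fold changes were -0.12 (Mink1), -0.05 (Arhgef11), 0.54 (Rarb), 0.11 (Mcoln1), 0.43 (Trim24) and -0.01 (Pik3r4). Mink1 measured 43.5, 43.7, 47.2 and 48.8 CPM in antibiotics replicates 1, 2, 3 and 5, below every control (49.1 to 50.4 CPM, edgeR adjusted p = 0.338). Trim24 measured 15.8, 18.7, 25.4 and 29.5 CPM in antibiotics replicates 1, 2, 3 and 5, against 12.7 to 20.3 CPM in controls (edgeR adjusted p = 0.239). Rarb measured 1.31, 1.62, 2.38 and 4.35 CPM in the same replicates, against 1.39 to 1.98 CPM in controls (edgeR adjusted p = 0.371). Both had antibiotics replicates 3 and 5 above all controls, while in replicate 1 Trim24 lay within the control range and Rarb below it. For Acot1 the nearest included Gm8893 (0.98), Inppl1 (0.97) and Cntnap1 (0.96), and for Acot2 Zfp444 (0.98), Gm7488 (0.97), Dhx35 (0.96) and the integrin Itga7 (0.94).

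**Figure D4:**
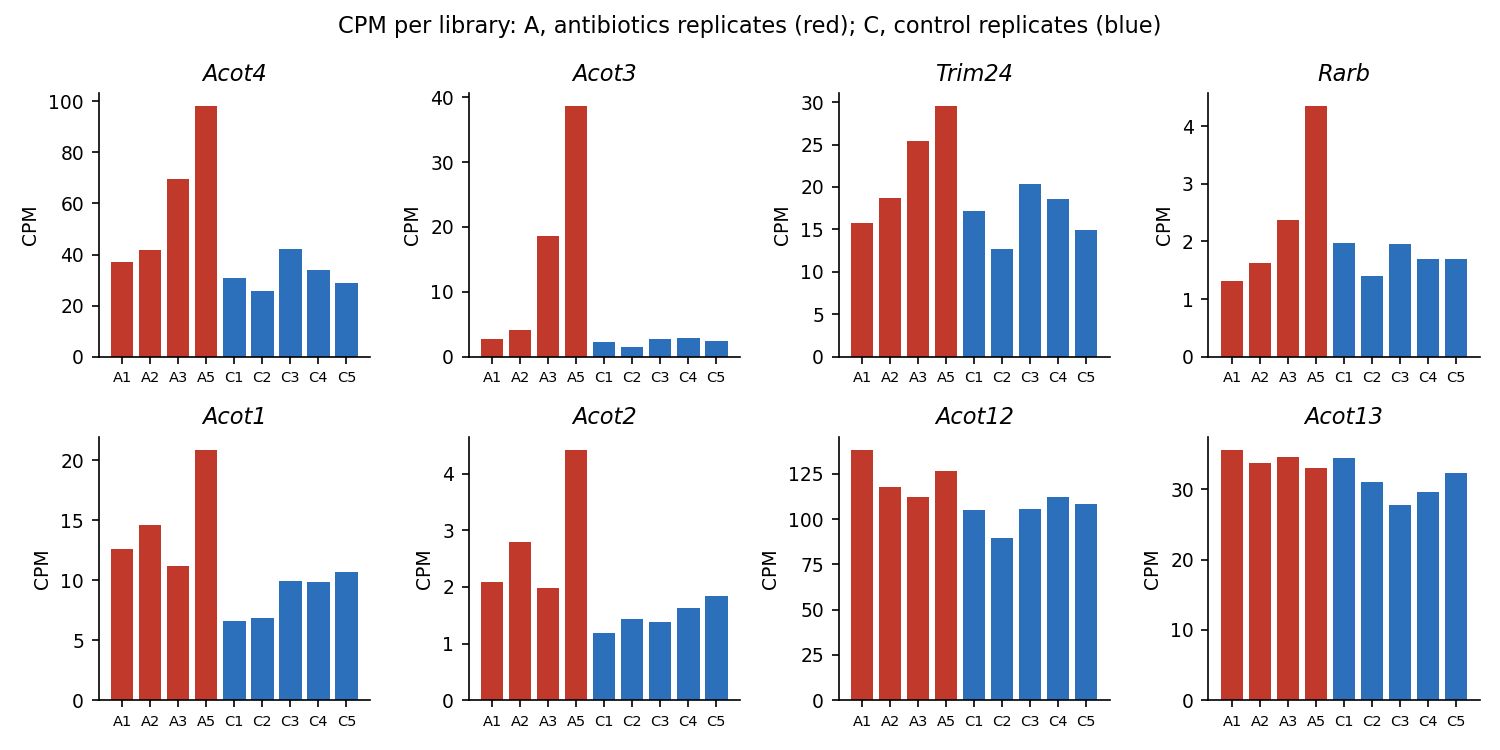
CPM per library for 6 members and for Trim24 and Rarb, which were among the genes most like Acot4 and Acot3, with antibiotics libraries (A, red) left of control libraries (C, blue). Acot4, Acot3, Trim24 and Rarb are highest in A5 and next in A3, while Acot1 and Acot2 have A3 lowest among antibiotics libraries and Acot12 and Acot13 have A1 highest.

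Signs of RNA quality and of other cell types were set beside these values. The score of 13 mitochondrially encoded mRNAs was 0.35, 0.58, 0.41 and -0.06 in antibiotics replicates 1, 2, 3 and 5, against -0.16 to 0.27 in controls, so it was lowest within its group where Acot3 was highest. None of those 13 genes passed with edgeR (4 at an unadjusted p under 0.05), DESeq2 or voom. The summed level of 8 adipocyte markers was 3.62 to 5.345 CPM in antibiotics libraries against 0.938, 1.93, 1.20, 1.36 and 5.396 CPM in control replicates 1 to 5. Control replicates 1 to 4 thus lay below every antibiotics library and control replicate 5 above them, so this sum moved with the group, and its part in the results was not tested. Of these markers 0 of the 2 that could be tested passed with edgeR (1 at an unadjusted p under 0.05), DESeq2 or voom. Cidec, which is also in the list of PPARalpha and its known liver targets, gave the largest part of the sum. Lep reached at most 0.055 CPM with antibiotics and 0 in controls, and Adipoq at most 0.939 and 0.147 CPM. Cidea and Retn went the other way. Cidea reached at most 0.065 CPM with antibiotics and 0.22 CPM in controls, and Retn at most 0.016 and 0.18 CPM. The summed level of 7 Kupffer cell and macrophage markers was 138, 140.4, 166 and 178 CPM in antibiotics replicates 1, 2, 3 and 5, against 136 to 401 CPM in controls. The summed level of 5 bile duct markers, most of it Spp1, was 33.4, 43.2, 64.3 and 66.6 CPM in those antibiotics replicates and 33.8 to 93.3 CPM in controls. Both sums were higher in antibiotics replicates 3 and 5 than in replicates 1 and 2, as Acot3 was. In replicates 3 and 5 both lay inside the control range, and the bile duct sum of replicate 1 lay just below it. The score of 6 stellate cell markers also had the order of Acot3. It was -0.45, -0.14, -0.11 and 0.09 in antibiotics replicates 1, 2, 3 and 5, against -0.08 to 0.16 in controls. The summed level of these stellate markers, 159.3, 178.8, 157.6 and 159.5 CPM in those antibiotics replicates, did not have that order. With edgeR, DESeq2 and voom 0 of 7 Kupffer cell, 6 endothelial, 6 stellate, 5 bile duct and 5 lymphocyte markers passed (with edgeR 1 endothelial marker and 0 of the others at an unadjusted p under 0.05). Of 8 hepatocyte markers 0 passed with edgeR (2 higher at an unadjusted p under 0.05, beside 9.60% of all tested genes). DESeq2 and voom both called Ass1 higher. The hepatocyte score was 0.09, 0.08, 0.04 and -0.18 in antibiotics replicates 1, 2, 3 and 5, against -0.19 to 0.09 in controls. The part of these cell types in the Acot3 and Acot4 levels was not tested. With edgeR 4 of 16 clock genes were higher and 1 was lower, beside 1.63% and 1.05% of all tested genes. DESeq2 called 7 higher and 3 lower (975 of all 14873 tested genes in either direction), and voom 4 higher and 2 lower (413 of all). Among those higher was Dbp (log2 fold change 0.82 ± 0.11, SE, edgeR adjusted p = 0.00767). Among those lower was Nfil3 (-0.67 ± 0.11, SE, edgeR adjusted p = 0.014). At an unadjusted p under 0.05 edgeR had 9 clock genes higher and 5 lower, beside 9.60% and 8.87% of all tested genes. The clock score averages over both directions, so opposite shifts cancel in it. It was 0.13, 0.21, 0.18 and 0.13 in antibiotics replicates 1, 2, 3 and 5, against -0.22 to 0.18 in controls. No label gives the time of day.

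The neighbouring paralogs were little expressed. Acot6, a peroxisomal enzyme for methyl-branched acyl-CoA, measured 0.784, 1.00, 0.829 and 1.03 CPM in antibiotics replicates 1, 2, 3 and 5, against 0.374 to 0.920 CPM in controls (log2 fold change 0.73 ± 0.29, SE, edgeR adjusted p = 0.213). Acot5 had 1 count in antibiotics replicate 5 and 0 in every other library, and the pseudogenes Gm47943 and Gm8385 and the thioesterase Acot10 had 0 in all 9. Of 11 tested genes among 14 further listed thioesterases and related enzymes, 0 passed with edgeR, DESeq2 or voom, and at an unadjusted p under 0.05 there were 2 higher and 1 lower. Mitochondrial Acot9 measured 3.86 ± 0.441 CPM with antibiotics (SD, n = 4) and 5.46 ± 0.853 CPM in controls (SD, n = 5), with no overlap between the groups (log2 fold change -0.48 ± 0.14, SE, edgeR adjusted p = 0.0924). Acot7, Acot11, Them4, Them6, Ppt1, Ppt2 and Mcat had log2 fold changes from -0.18 to 0.05, and Oxsm, an enzyme of mitochondrial fatty acid synthesis, 0.25. Baat, which joins bile acids to taurine or glycine and is related in sequence to the cluster, measured 180 ± 18.7 CPM with antibiotics (SD, n = 4) and 202 ± 28.3 CPM in controls (SD, n = 5), with an edgeR adjusted p of 0.444.

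Acyl-CoA synthetases, which run the reaction in the other direction, changed in 1 of 17 tested genes with edgeR, beside 2.68% of all tested genes. DESeq2 called 3 (Acsm3 and Slc27a1 higher, Acsl3 lower) and voom called Slc27a1, beside 975 and 413 of all 14873 tested genes. Slc27a1, a fatty acid transporter with synthetase activity, rose to 5.32 ± 0.994 CPM with antibiotics (SD, n = 4), against 3.02 ± 0.389 CPM in controls (SD, n = 5), a log2 fold change of 0.83 ± 0.15 (SE, edgeR adjusted p = 0.0230). It did not pass without antibiotics replicate 1, 3 or 5 or control replicate 2 (adjusted p = 0.0513 to 0.0831). The medium-chain synthetase Acsm3, Acsl3, Slc27a2 and Slc27a4 were the next by p, with log2 fold changes of 0.34, -0.69, 0.27 and -0.21, and the list median was 0.05. Among 19 genes of coenzyme A synthesis and breakdown 0 passed with edgeR, DESeq2 or voom and 1 was higher at an unadjusted p under 0.05. Its 4 smallest p-values belonged to Ppcdc, Vnn3, Pank1 and Slc25a16, with log2 fold changes from 0.14 to 0.25.

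Fatty acid oxidation, which competes for the same acyl-CoA, had mostly small positive differences, with a log2 fold change above 0 in 19 of 22 peroxisomal and 18 of 19 mitochondrial genes, beside 48.6% of all tested genes. In peroxisomes 1 of 22 genes passed: Decr2, a dienoyl-CoA reductase, rose to 174 ± 16.7 CPM with antibiotics (SD, n = 4), against 136 ± 7.93 CPM in controls (SD, n = 5). Its log2 fold change was 0.35 ± 0.08 (SE, edgeR adjusted p = 0.0436), and omission of a single library ended the call in 7 of 9 cases, namely any of antibiotics replicates 1, 3 and 5 or control replicates 1 to 4 (adjusted p = 0.0552 to 0.119). Acaa1a, a thiolase of the pathway, had a log2 fold change of 0.37 ± 0.11 (SE, edgeR adjusted p = 0.114). In mitochondria 0 of 19 genes passed with edgeR or voom. With edgeR 5 were higher at an unadjusted p under 0.05, beside 9.60% of all tested genes. DESeq2 called 4 of the 19, beside 975 of 14873 genes. These 4 were Cpt1a (0.46 ± 0.11, SE, edgeR adjusted p = 0.0585), Echs1 (0.27), Acadm (0.19) and Acadl (0.17), the log2 fold changes coming from edgeR. The median log2 fold change was 0.08 in the peroxisomal list and 0.15 in the mitochondrial list, beside -0.01 over all tested genes.

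Of 39 tested genes in the list of PPARalpha and its known liver targets, 1 passed with edgeR, Slc27a1, where 1.63% of all tested genes were called higher. At an unadjusted p under 0.05 there were 11 higher and 3 lower, beside 9.60% higher and 8.87% lower of all tested genes, and the list median was 0.17. Next to Cpt1a, small p-values belonged to Pdk4, which restrains pyruvate oxidation (log2 fold change -0.75 ± 0.20, SE, edgeR adjusted p = 0.0694), and the aldehyde dehydrogenase Aldh3a2 (0.32 ± 0.09, SE, edgeR adjusted p = 0.0868). Scored like the cluster, the whole list stood at 0.15, 0.09, -0.003 and 0.25 in antibiotics replicates 1, 2, 3 and 5, against -0.09 to 0.19 in controls, so it was highest of all 9 libraries in replicate 5, where Acot3 was highest too, and inside the control range in replicate 3, where Acot3 was also high.

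**Figure D5:**
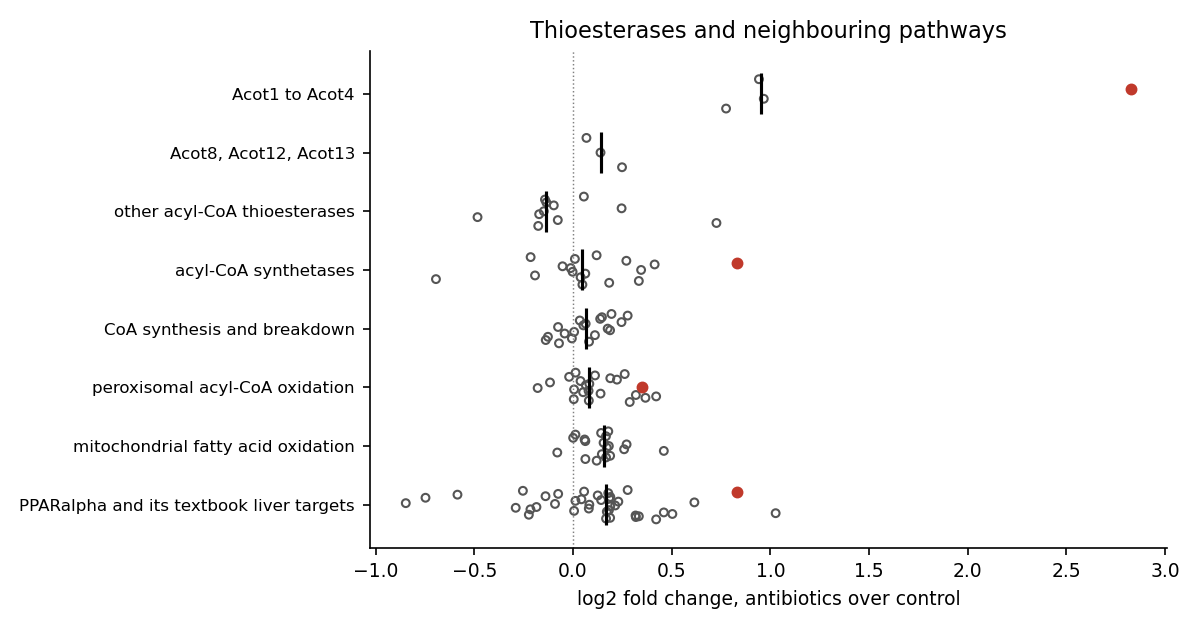
Log2 fold change, antibiotics over control, of each tested gene in the clustered paralogs, the other members and 6 neighbouring lists. Filled red points passed edgeR's test at an adjusted p under 0.05, open points did not, and black bars are list medians, which lie at 0.95 for Acot1 to Acot4, 0.14 for Acot8, Acot12 and Acot13, and between -0.14 and 0.17 for the other lists.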

How the data were processed

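Per the submitters' processing notes the authors used Salmon and GRCm38; its version, settings and annotation were not given in the sources used here. The authors' deposited values are gene-level estimated counts, already rounded to whole numbers. All 54393 identifiers, version included, occur in GENCODE M21 (55450 genes), which gave symbols, positions and exon lengths.

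Genes were filtered with filterByExpr of edgeR 4.0.16 (minimum count 10, minimum total 15), normalised with TMM and tested by quasi-likelihood (R 4.3.3) in a model holding group alone, with p-values adjusted by Benjamini-Hochberg over 14873 genes. Each SE was obtained as the absolute log2 fold change divided by the root of F. CPM are on TMM-scaled libraries. The biological coefficient of variation was 16.7%. The fit was tested on simulated data.

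The members, gene lists and tests were chosen with earlier results of these data known. All 7 members are described. Up to 4 genes of smallest p per pathway list, any that passed, and the 4 genes most like each clustered paralog could be named. Alternatives were RLE and upper-quartile factors, other filters, thinning, totals that leave out the 10 most abundant genes, a replicate block, omission of each library, DESeq2 1.42.0 and limma-voom (limma 3.58.1). Close copies were searched with BLAST+ 2.17.0 (95% identity over 200 nt), which found Acot2 for Acot1, Gm49366 for Acot3 and Acot6 for Acot4 on the same strand. All pairs of libraries in a group differed by more than sampling noise (chi-square per degree of freedom at least 20.2). No label ties each library to a mouse of its own, so the tests reflect only how these libraries vary. Promoter sequences are from RefSeq, and 6 of 7 members matched. A few genes and a sequence that these rules would name are not reported here.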

Additional observations from a re-analysis of the deposited data

Results flagged for a closer look

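Acot8 measured 11.7 CPM in control replicate 5, against 7.97 to 8.71 CPM in the other 4 controls. Its gap to the next library, 0.802 of the whole control range, was above the 95% critical value of 0.71 for 5 samples. Of 20 groups of values examined in this way, this was the 1 that stood out, and chance gives about 1 in 20. The high Acot3 value of antibiotics replicate 5 (38.6 CPM) did not stand out by this measure, with a ratio of 0.556 against 0.829 for 4 samples, because replicate 3 was also high.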

How the results depend on the processing

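The excess of the cluster over the other members kept its direction wherever it was computed, which was not done with DESeq2 or limma-voom. It was 0.638 to 1.24 with 1 library left out and 0.834 to 1.01 otherwise, against 0.958. Other library factors or totals shift both scores of a library alike, so they could hardly change this excess. All 7 members kept a positive fold change in every alternative fit, DESeq2 and limma-voom included. The number of members that passed, 1, was 3 with no filter on low counts (Acot1, Acot3 and Acot4), where 373 genes were called in all. It was 3 with DESeq2 (Acot1, Acot2 and Acot3) and 0 in thinned libraries, where 340 genes were called. Limma-voom called 413 genes, with Acot2 in place of Acot3 (adjusted p = 0.0487 and 0.105). With 1 library left out the number of members was 0 to 1 and that of PPARalpha targets 0 to 4. The total of all genes called was then 36 (without antibiotics replicate 5) to 455, against 398 with all 9. DESeq2 called 975 genes, 3 members and 8 PPARalpha targets. With the replicate number as a block the counts were 179 genes, 0 members (Acot3 adjusted p = 0.0846) and 2 PPARalpha targets. That fit also left out control replicate 4, whose number the antibiotics group lacks. Leaving out control replicate 4 without a block gave 144 genes, 0 members (Acot3 edgeR adjusted p = 0.0706) and 1 PPARalpha target. Decr2 did not pass with no filter (adjusted p = 0.0845) or with the block (0.0843). Pairing of libraries by number was not evident, though so few libraries cannot exclude it. Correlations of same-numbered libraries were -0.0565 to 0.103, and 2 of 4 antibiotics libraries correlated best with their own number. The causes were not tested. Depth limits Acot2, which had fewer than 100 counts in every library but antibiotics replicate 5 (275), and Acot3, which had fewer than 100 in 6 of 9 libraries (42 and 75 in antibiotics replicates 1 and 2, 65 to 93 in all controls but replicate 4).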
